A study of Homo sapiens with 12 samples.

Results

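The BCL2 family decides whether the mitochondria of a stressed cell release the proteins that start caspase activation, and 10 of its genes were followed here in human myeloma cells. The genes are the survival genes BCL2, BCL2L1 (encoding BCL-XL), MCL1 and BCL2A1 (encoding BFL-1), the BH3-only genes BCL2L11 (encoding BIM), BBC3 (encoding PUMA), PMAIP1 (encoding NOXA) and BID, and the effector genes BAX and BAK1. They were taken from the tables by symbol, and are 10 of the 25680 gene symbols in the count tables. The cells were U266 and MM.1S, established lines of malignant plasma cells, each from a single patient, grown in RPMI with 20% fetal bovine serum. Each line was treated for 6 h with the solvent DMSO or with 6 µM IT848, which the labels call an inhibitor of NF-kB. Total RNA was sequenced in 3 libraries for each of the 4 groups, that is U266 with DMSO, U266 with IT848, MM.1S with DMSO and MM.1S with IT848. No group carried a genetic change made for the study. Separate cultures are not stated for the 3 libraries of a group, and the p-values therefore cover only the spread among these libraries, which may be technical.

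Survival proteins of the family hold BAX and BAK1 in check at the mitochondrial outer membrane and bind the BH3-only proteins. BH3-only proteins occupy the survival proteins or activate BAX and BAK1 directly, after which these effectors form pores. Plasma cells and most myelomas depend heavily on MCL1, and NF-kB is known to drive transcription of BCL2L1 and BCL2A1 in lymphoid cells.

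The libraries held 50627690 to 72039748 counts over transcripts, and 18259 to 20966 genes were detected in each. A read is counted once for every transcript of a gene it overlaps, so summed gene counts repeat reads. Values below are therefore compared within a gene, as CPM, counts scaled to a common library sum after normalization, unless a length is named. The sum of 8 plasma cell markers was 4258 to 4363 CPM under DMSO and 3686 to 3771 CPM under IT848 in U266, and 8251 to 8479 and 8207 to 9638 CPM in MM.1S, against 0.889 to 1.42 CPM for 5 T and NK cell markers and 1.07 to 4.76 CPM for 5 myeloid ones. Of the plasma cell markers, SDC1 averaged 1067 ± 43.1 CPM under DMSO and 734 ± 10.3 CPM under IT848 in U266, and 655 ± 8.15 and 318 ± 3.91 CPM in MM.1S. IRF4, XBP1, PRDM1 and CD38 also averaged less under IT848 in both lines. SLAMF7 averaged more in both, at 652 and 905 CPM in U266 and 2796 and 3755 CPM in MM.1S, DMSO first. TNFRSF17 and IGJ averaged less under IT848 in U266 and more in MM.1S. A list of 5 stromal markers, led by COL1A1, summed to more under IT848 than under DMSO, at 35.0 to 43.1 against 27.7 to 32.7 CPM in U266 and 21.9 to 28.5 against 14.9 to 19.6 CPM in MM.1S. A list of 5 erythroid markers, led by HBB, summed to 4.22 to 5.43 CPM under IT848 and 2.19 to 2.28 CPM under DMSO in MM.1S. The part of these markers in the results was not tested. In 2 libraries, U266 IT848 replicate 1 and MM.1S DMSO replicate 2, genes otherwise silent in the line stood at 0.869% and 0.437% of their level in the other line. At those shares the other line would add at most 2.21% to any of the genes followed, except 5.96% to BCL2A1 in U266 IT848 replicate 1. MM.1S IT848 replicate 3 lay farther from its replicates than any other library, with chi-square statistics per degree of freedom of 25.7 and 10.6 against 2.00 to 7.47 for the other pairs.

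Per unit of length, MCL1 was the most abundant of the 10 transcripts in all 4 groups and BCL2A1 the least abundant. These levels are TPM, reads per base scaled to a fixed library sum, of the most counted transcript of each gene, which spans from 859 bases for BAX to 6492 bases for BCL2. In U266 under DMSO, MCL1 stood at 355.5 ± 6.06 TPM (SD, n = 3), followed by BCL2L1 at 152 ± 8.75 TPM, BAX at 74.1 ± 3.27 TPM and BCL2 at 65.4 ± 2.05 TPM. BAK1 at 61.5 ± 4.44 TPM overlapped the BCL2 libraries, and BCL2L11 came below both at 51.7 ± 1.39 TPM. PMAIP1 at 26.8 ± 1.90 TPM and BID at 26.2 ± 1.16 TPM could not be ordered, since their libraries overlapped. BBC3 stood at 2.93 ± 0.707 TPM and BCL2A1 at 0.141 ± 0.00894 TPM, the lowest 2 levels of the 10 genes in U266. The order of the 10 means was the same under IT848.

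In MM.1S under DMSO the same first 3 genes led, but BCL2L1 was close to MCL1. MCL1 stood at 364.5 ± 13.1 TPM, BCL2L1 at 312 ± 5.37 TPM and BAX at 126 ± 7.44 TPM. BAK1 at 80.7 ± 3.25 TPM and BCL2L11 at 76.0 ± 2.51 TPM overlapped, as did BID at 49.2 ± 2.25 TPM and BCL2 at 46.0 ± 3.35 TPM. BBC3 at 14.2 ± 2.08 TPM and PMAIP1 at 12.8 ± 0.606 TPM overlapped too, and BCL2A1 came last, between 1.22 and 1.91 TPM. Under IT848, BID at 57.3 ± 3.03 TPM stood above BCL2L11 at 45.7 ± 4.51 TPM, the reverse of their order under DMSO, and in both treatments their libraries were separate. The level of BID depended on the transcript chosen. From its longest transcript BID averaged 43.6 TPM under DMSO and 50.8 TPM under IT848, nearer to BCL2L11 under IT848.

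**Figure D1:**
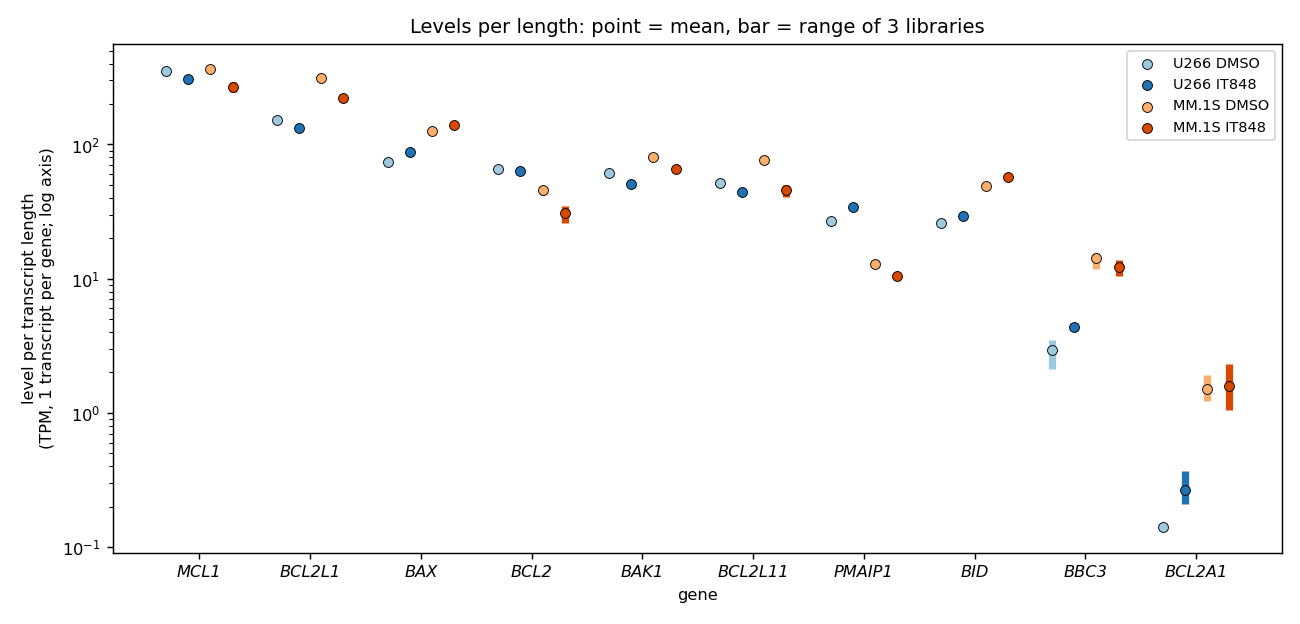
Level per length of the 10 genes in the 4 groups, as TPM of the most counted transcript on a log axis, with a point at the mean and a bar from the lowest to the highest of 3 libraries. MCL1 is highest and BCL2A1 lowest in each group, and BCL2L1 lies nearer to MCL1 in MM.1S than in U266.

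Ratios between survival genes differed more between the lines than between treatments. The ratio of BCL2 to BCL2L1 per length was 0.433 ± 0.039 in U266 with DMSO and 0.480 ± 0.020 with IT848, with overlapping libraries. In MM.1S it was 0.147 ± 0.0088 with DMSO and 0.140 ± 0.0136 with IT848. The ratio of BCL2L1 to MCL1 was 0.426 and 0.432 in U266 and 0.857 and 0.821 in MM.1S, DMSO first. Of the effectors, the ratio of BAX to BAK1 was 1.21 ± 0.12 in U266 with DMSO and 1.74 ± 0.056 with IT848, and 1.56 ± 0.030 and 2.13 ± 0.021 in MM.1S. It was higher under IT848 in every library of each line. The ratio was not corrected for the trend of fold change with transcript length. That correction left the MM.1S change of BAX at 0.06 on the log2 scale, and the BAK1 call in MM.1S was lost in 8 of 21 alternatives.

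The first comparison asked what IT848 did to these genes in U266. It lowered BCL2L1, MCL1, BCL2L11 and BAK1 by 12.3% to 17.5% and raised BAX by 18.4%, PMAIP1 by 28.4% and BBC3 by 49.6%. BCL2, BCL2A1 and BID did not pass the test. A gene was called where the adjusted p of edgeR's quasi-likelihood test, taken over all 16782 genes tested, was below 0.05. All 10 genes passed the filter on low counts, but BCL2A1 did so only through MM.1S. It had 4 to 10 summed counts per library in U266 and 24 to 56 in MM.1S. The 7 called genes, 3 higher and 4 lower, compare with 9.01% of all genes tested, 4.03% higher and 4.98% lower. The 10 genes were chosen with earlier results of these data known, so such shares, here and below, only describe the list. The treated libraries lay wholly above or below the controls for 9 of the 10 genes, the hardly measured BCL2A1 among them, against 28.9% of all genes. The median log2 change of the 10 was 0.06, against 0.01 over all genes.

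Among the survival genes in U266, MCL1 had 1091, 1054 and 1073 CPM in the DMSO libraries and 903, 960 and 927 CPM in the IT848 libraries. Every treated library lay below every control library, and the log2 change was −0.21 ± 0.04 (SE, adjusted p = 0.00167). BCL2L1, which protects mitochondria in many cell types and supports plasma cell survival, had 204, 182 and 197 CPM under DMSO and 170, 168 and 174 CPM under IT848. These groups were separate too, with a log2 change of −0.19 ± 0.04 (adjusted p = 0.0101). BCL2, the founding survival gene and the target of venetoclax, had 120, 128 and 123 CPM under DMSO and 116, 123 and 121 CPM under IT848. Its groups overlapped and its log2 change was −0.04 ± 0.06 (adjusted p = 0.76). BCL2A1 could hardly be measured, with 6 reads of its most counted transcript over the 3 DMSO libraries and 12 over the 3 IT848 libraries, a ratio of 1.88 with an exact 95% interval of 0.653 to 6.11 that covers counting error only.

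Of the BH3-only genes in U266, BCL2L11 fell while PMAIP1 and BBC3 rose. BCL2L11, whose protein binds all the survival proteins and activates BAX, had 1109, 1085 and 1133 CPM under DMSO and 941, 958 and 968 CPM under IT848. The groups were separate, and the log2 change was −0.21 ± 0.04 (adjusted p = 0.00131). PMAIP1, whose protein binds chiefly MCL1 and BFL-1, had 12.4, 14.2 and 12.9 CPM under DMSO and 16.7, 16.6 and 17.3 CPM under IT848. It was higher in each treated library, with a log2 change of 0.36 ± 0.08 (adjusted p = 0.00987). BBC3, a p53 target gene, had 3.48, 5.71 and 5.01 CPM under DMSO and 7.18, 6.31 and 7.80 CPM under IT848. The treated libraries again lay above the controls, with a log2 change of 0.58 ± 0.16 (adjusted p = 0.0367). BID, whose protein links death receptors to mitochondria once caspases cleave it, had 102, 97.9 and 91.9 CPM under DMSO and 105, 109 and 113 CPM under IT848, separate groups whose log2 difference of 0.17 ± 0.07 was not called (adjusted p = 0.214).

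The effectors went in opposite directions in U266. BAX had 136, 142 and 146 CPM under DMSO and 173, 160 and 167 CPM under IT848, and rose by 0.24 ± 0.04 on the log2 scale (adjusted p = 0.00221). BAK1 had 36.6, 31.7 and 34.1 CPM under DMSO and 28.3, 28.0 and 28.1 CPM under IT848, and fell by 0.28 ± 0.05 on the log2 scale (adjusted p = 0.00341). Neither gene's groups overlapped.

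With U266 IT848 replicate 1 and MM.1S DMSO replicate 2 left out, 4 of the 10 genes were called in U266, namely MCL1, BCL2L11, BAX and BAK1. BCL2L1 then had a log2 change of −0.19 (adjusted p = 0.0682), BBC3 0.57 (adjusted p = 0.0883) and PMAIP1 0.37 (adjusted p = 0.0501), and these 3 calls were also lost without U266 DMSO replicate 1 or replicate 3, among others. BAX was not called in U266 once the trend of fold change with transcript length was taken out, at 0.20 (adjusted p = 0.0812).

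**Figure D2:**
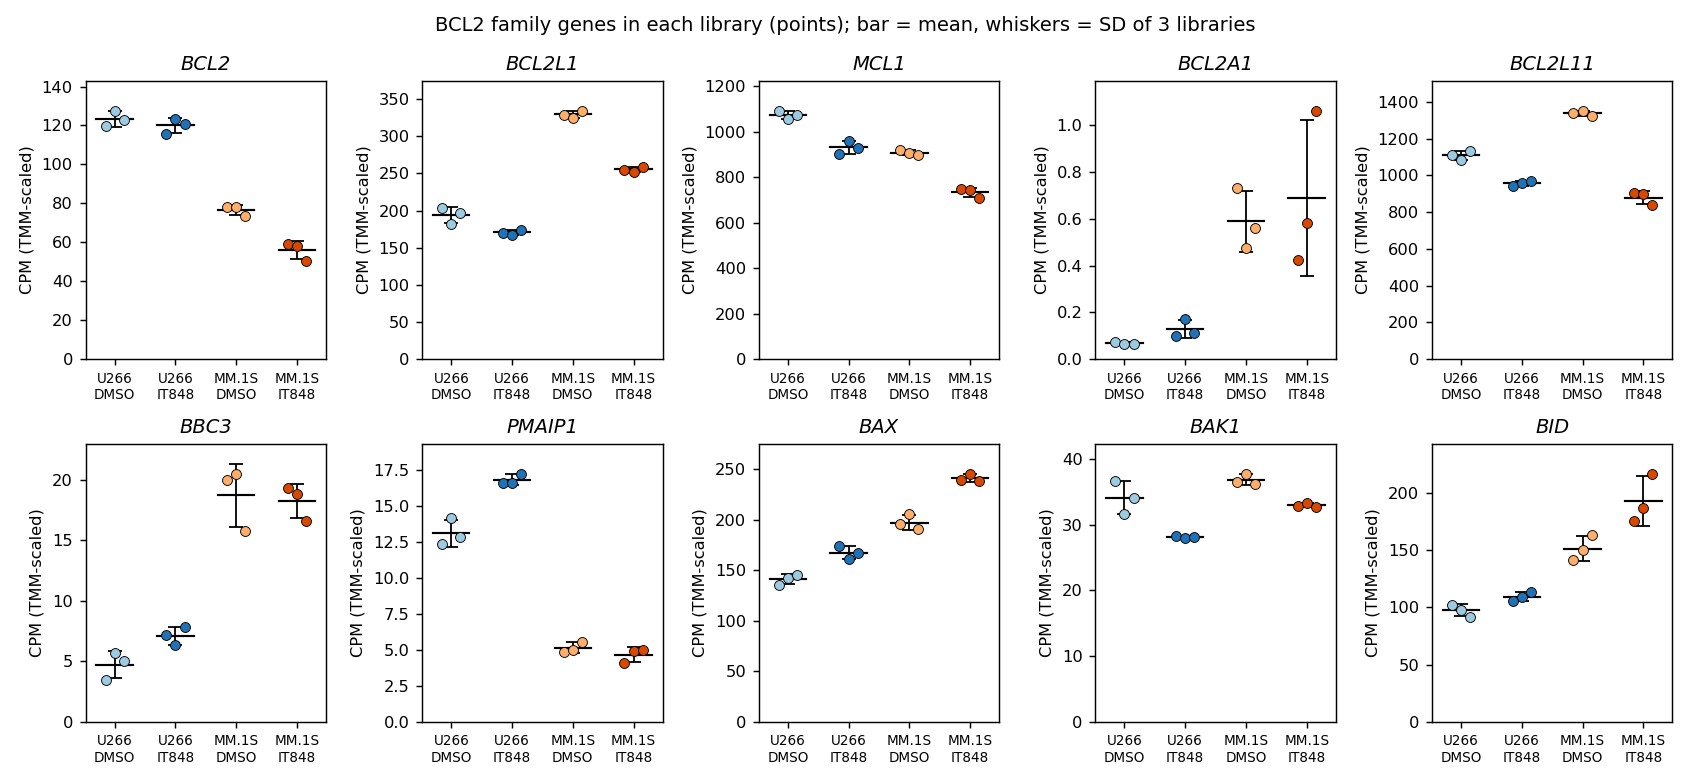
Normalized CPM of each of the 10 genes in the 12 libraries, by line and treatment, with 1 point per library, a line at the mean and whiskers of 1 SD of 3 libraries. MCL1, BCL2L1, BCL2L11 and BAK1 lie lower and BAX higher under IT848 in both lines, while BCL2 is lower under IT848 in MM.1S and overlaps its controls in U266.

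In MM.1S, IT848 lowered 3 survival genes, BCL2L11 and BAK1, and raised BID and BAX. BCL2L11 fell by 34.3%, BCL2 by 26.7%, BCL2L1 by 22.5% and MCL1 by 19.2%, and BAK1 fell by 10.5%. BID rose by 27.6% and BAX by 22.2%. BCL2A1, BBC3 and PMAIP1 did not pass the test. The 7 called genes, 2 higher and 5 lower, compare with 38.3% of all genes tested, 18.7% higher and 19.6% lower. For those 7 genes the treated libraries again lay wholly above or below the controls, against 47.2% of all genes. The median log2 change of the 10 was −0.15, against −0.01 over all genes.

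BCL2 had 77.9, 77.9 and 73.4 CPM in the MM.1S DMSO libraries and 59.2, 58.1 and 50.6 CPM in the IT848 libraries, a log2 change of −0.45 ± 0.06 (adjusted p = 2.92e-05). BCL2L1 had 329, 325 and 334 CPM under DMSO and 254, 252 and 259 CPM under IT848, a log2 change of −0.37 ± 0.04 (adjusted p = 1.04e-05). MCL1 had 918, 904 and 898 CPM under DMSO and 747, 742 and 709 CPM under IT848, a log2 change of −0.31 ± 0.04 (adjusted p = 1.23e-05). For these 3 survival genes every treated library lay below every control library. BCL2A1 had 0.73, 0.47 and 0.56 CPM under DMSO and 0.42, 0.58 and 1.06 CPM under IT848. The groups overlapped, and the log2 difference of 0.20 ± 0.33 (adjusted p = 0.66) was −0.23 without MM.1S IT848 replicate 3.

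BCL2L11 gave the deepest fall of the 10 genes in MM.1S. It had 1341, 1351 and 1324 CPM under DMSO and 902, 897 and 838 CPM under IT848, a log2 change of −0.61 ± 0.04 (adjusted p = 1.73e-08). The table lists 18 transcripts of this gene, and their log2 changes in MM.1S ran from −0.61 to −0.55. These transcripts share reads, so their changes are not independent. Upstream of the gene, a match to the forkhead motif GTAAACA, the kind of site bound by FOXO factors, begins 223 bases before the RefSeq start and is shown here in capitals at chr2:111120681-111120707 on the plus strand of GRCh38.p14.
BCL2L11: agttactccgGTAAACAcgccagggac
A match on either strand occurs in 3.42% of 35116 RefSeq promoter windows, each from 250 bases before to 50 bases after a start. FOXO3 itself fell from 785 ± 25.7 to 558 ± 29.3 CPM in MM.1S. In U266, where BCL2L11 was also called lower, FOXO3 stood at 72.1 ± 0.778 and 73.5 ± 3.44 CPM, DMSO first. FOXO1 was not called in either line, at −0.07 ± 0.08 in MM.1S and −0.16 ± 0.08 in U266 on the log2 scale. Whether this site or these factors bear on BCL2L11 was not tested.

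BID, PMAIP1 and BBC3 were not called lower in MM.1S. BID had 141, 150 and 163 CPM under DMSO and 175, 187 and 217 CPM under IT848, and rose by 0.35 ± 0.07 on the log2 scale (adjusted p = 0.00185). PMAIP1 had 4.86, 5.01 and 5.58 CPM under DMSO and 4.06, 4.93 and 4.99 CPM under IT848, with overlapping groups and a log2 difference of −0.14 ± 0.10 (adjusted p = 0.263). BBC3 had 20.0, 20.5 and 15.8 CPM under DMSO and 19.3, 18.8 and 16.6 CPM under IT848, again overlapping, with a log2 difference of −0.04 ± 0.14 (adjusted p = 0.854).

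Of the effectors, BAX had 196, 205 and 190 CPM in MM.1S under DMSO and 239, 246 and 238 CPM under IT848, a log2 change of 0.29 ± 0.04 (adjusted p = 0.000128). BAX has the shortest transcript of the 10, and taking out the trend with transcript length left 0.06 (adjusted p = 0.515). On the TPM scale of 1 transcript its MM.1S libraries overlapped, at 118 to 132 TPM under DMSO and 130 to 147 TPM under IT848. BAK1 had 36.5, 37.8 and 36.2 CPM under DMSO and 32.8, 33.3 and 32.8 CPM under IT848, with separate groups and a log2 change of −0.16 ± 0.05 (adjusted p = 0.0262). The BAK1 call was lost in 8 of the 21 alternatives run for it, among them the fit without U266 IT848 replicate 1 and MM.1S DMSO replicate 2 (adjusted p = 0.128). Without MM.1S IT848 replicate 3 it was lost too, and the log2 changes of BCL2, BCL2L11 and BID were then −0.37, −0.56 and 0.27, each still called.

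In both lines together, BAX was called higher and BCL2L1, MCL1, BCL2L11 and BAK1 were called lower, and no gene was called in opposite directions. With the length trend taken out, BAX was called in neither line. The BAK1 call in MM.1S was lost in 8 of 21 alternatives and the BCL2L1 call in U266 in 4 of 21. Over all genes tested, 2.31% were called higher in both lines and 2.97% lower in both.

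**Figure D3:**
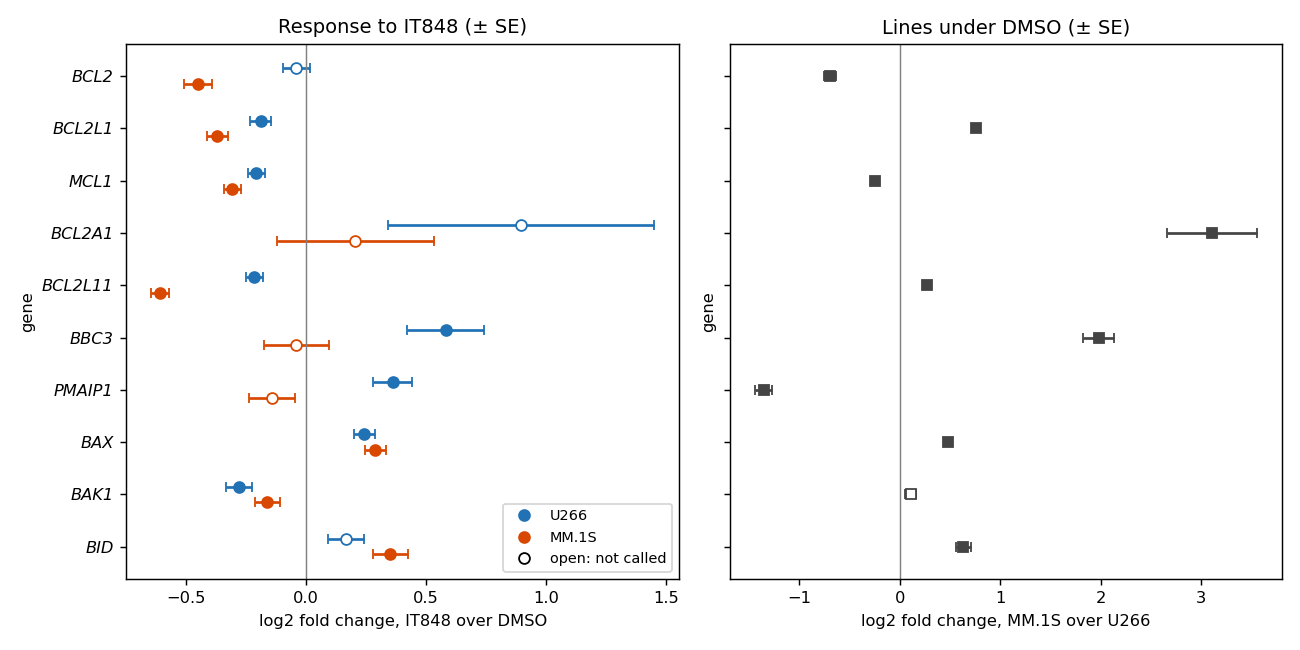
Log2 fold change of the 10 genes under IT848 in U266 and MM.1S (left) and of MM.1S over U266 under DMSO (right), with bars of 1 SE, filled points for adjusted p below 0.05 and open points for the rest. BCL2, at −0.04 in U266 and −0.45 in MM.1S, and BCL2L11, at −0.21 and −0.61, are further below 0 in MM.1S on the left, and only BAK1 is open on the right.

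The response to IT848 differed between the lines for BCL2, BCL2L11 and PMAIP1, each lower in MM.1S relative to U266. The test was the interaction of line and treatment, in which 17.4% of all genes tested were called, 8.49% higher and 8.94% lower. For BCL2 the MM.1S response minus the U266 response was −0.41 ± 0.08 on the log2 scale (adjusted p = 0.00304), and for BCL2L11 it was −0.39 ± 0.05 (adjusted p = 0.000146). For PMAIP1 it was −0.50 ± 0.12 (adjusted p = 0.0128), a rise in U266 beside overlapping libraries in MM.1S. The median difference of the 10 genes was −0.29, against −0.02 over all genes. BCL2L1 at −0.18 ± 0.06 (adjusted p = 0.0514) and BBC3 at −0.62 ± 0.21 (adjusted p = 0.0581) missed the threshold, and each was called under 1 transcript per gene, DESeq2, the length correction and the replicate block. MCL1, BCL2A1, BAX, BAK1 and BID were not called, at −0.10 ± 0.05, −0.69 ± 0.64, 0.05 ± 0.06, 0.12 ± 0.07 and 0.18 ± 0.10. Without U266 IT848 replicate 1 and MM.1S DMSO replicate 2, PMAIP1 was at −0.52 (adjusted p = 0.0503) and only BCL2 and BCL2L11 of the 10 were called.

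The last comparison set MM.1S against U266 under DMSO alone. Of the 10 genes, 6 were called higher in MM.1S, namely BCL2L1, BCL2A1, BCL2L11, BBC3, BAX and BID, and BCL2, MCL1 and PMAIP1 were called lower. BCL2A1 had passed the filter on low counts only through MM.1S, the line where it was higher, so its call is not separate from that filter. The lines differed in 82.6% of all genes tested, 40.6% higher and 42.1% lower, so 9 of 10 is close to that background. Libraries of the lines did not overlap for those 9 genes, BCL2A1 with its filter limit among them, against 84.7% of all genes. The median log2 difference of the 10 was 0.38, against −0.02 over all genes.

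BCL2 averaged 123 ± 3.94 CPM in U266, above every MM.1S library, and its log2 difference, MM.1S over U266, was −0.69 ± 0.06 (adjusted p = 1.99e-08). BCL2L1 showed the opposite order, with a log2 difference of 0.76 ± 0.04 (adjusted p = 1.95e-10). Counts assigned to the 2 listed BCL2 transcripts differed here, at −0.79 for the long one and −0.17 for the short one. Counts of the short one were 14.9 ± 0.53% of those of the long one in U266 with DMSO and 14.4 ± 0.36% with IT848, against 22.9 ± 1.70% and 22.8 ± 0.84% in MM.1S. Reads over sequence that both share count for each, so these values do not measure the 2 forms separately. MCL1 was lower in MM.1S by the CPM test, at −0.24 ± 0.04 (adjusted p = 1.47e-05), and at −0.27 to −0.23 over all 21 alternatives. On the TPM scale its mean was higher in MM.1S and the libraries overlapped, at 351 to 377 TPM in MM.1S and 349 to 360 TPM in U266. The length of MCL1 is the same in both lines, so the scales differ here in how libraries are scaled.

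Of the 10 genes other than BCL2A1, BBC3 and PMAIP1 differed most between the lines. BBC3 was higher in MM.1S at a log2 difference of 1.98 ± 0.15 (adjusted p = 2.38e-08), and PMAIP1 was lower at −1.35 ± 0.09 (adjusted p = 1.33e-09). BID at 0.63 ± 0.07, BAX at 0.48 ± 0.04 and BCL2L11 at 0.27 ± 0.04 were each higher in MM.1S. BAK1 overlapped between the lines, at 0.11 ± 0.05 (adjusted p = 0.0635). BCL2A1 had 54 reads of its most counted transcript in the MM.1S DMSO libraries against 6 in U266, a ratio of 8.95. The exact 95% interval of 3.85 to 25.4 covers counting error only, not the spread between libraries. Since BCL2A1 passed the filter only through MM.1S, these values describe its reads and add no separate test.

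Promoter windows were present in the RefSeq table for 9 of the 10 genes, all except MCL1, and 8 motifs were searched in them on both strands. BAX is shown because its window holds 4 copies of the E-box CACGTG, the site bound by MYC with MAX and by related factors, and BBC3 because it holds a match to the AP-1 motif TGANTCA, bound by JUN and FOS proteins. The motifs are in capitals. The BAX sequence is the 250 bases before the start, chr19:48954625-48954874 on the plus strand, and the BBC3 sequence is chr19:47232764-47232790 on the minus strand, from 123 to 97 bases before the start, both in GRCh38.p14.
BAX: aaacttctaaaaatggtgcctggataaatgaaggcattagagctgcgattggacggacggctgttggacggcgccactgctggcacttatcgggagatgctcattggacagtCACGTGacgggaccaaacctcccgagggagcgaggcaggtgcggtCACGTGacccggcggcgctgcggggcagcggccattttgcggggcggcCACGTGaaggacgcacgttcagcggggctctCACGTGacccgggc
BBC3: cactggaaggTGAGTCActctggtgag
The BAX copies begin 138, 93, 45 and 14 bases before the start. At least 1 CACGTG occurs in 7.26% of all windows and at least 4 occur in 0.0142%, which is 5 windows with BAX among them. BBC3 and BID hold 1 CACGTG each, the BID copy lying in 2 overlapping windows. The AP-1 motif occurs in 7.71% of windows. The kB consensus, in 5.91% of windows, was matched in none of the 9 genes, which says only that its letters are not in these windows. In BAK1 there was a match to part of a p53 site, not to the full site (6.63% of windows). The remaining matches were the STAT motif TTCNNNGAA (7.66%) and the C/EBP-ATF motif TGATGNAA (3.62%) in BCL2A1. The antioxidant response motif TGACNNNGC (13.3%) was matched in BCL2L1 and BAX, the BAX match overlapping the E-box at 93 bases before the start. Whether any of these sites is bound in these cells was not tested.

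Transcription factors known to control these genes were called in both directions, and their part in the changes above was not tested. Of 21 such factors, IT848 raised 5 and lowered 1 in U266, and raised 3 and lowered 10 in MM.1S, with median log2 changes of 0.04 and −0.11, against 0.01 and −0.01 over all genes. Over all genes tested, 4.03% were called higher and 4.98% lower in U266, and 18.7% higher and 19.6% lower in MM.1S. In U266 the largest called rises were of JUN from 21.4 ± 0.647 to 64.6 ± 4.15 CPM and ATF3 from 51.1 ± 1.60 to 93.6 ± 4.85 CPM. CEBPB, from 65.9 ± 2.11 to 105 ± 5.64 CPM, and DDIT3, which encodes CHOP, from 104 ± 4.27 to 155 ± 4.76 CPM, came next. In MM.1S, MYC fell from 230 ± 3.08 to 149 ± 6.60 CPM and E2F1 from 41.4 ± 2.58 to 26.2 ± 1.54 CPM. The response differed between the lines for 9 of the 21 factors, each lower in MM.1S, with JUN at −1.85 ± 0.07 and MYC at −0.99 ± 0.19, against 17.4% of all genes, 8.94% lower. The other 12 factors were not called for the difference. REL, an NF-kB subunit, fell in both lines, by 0.37 ± 0.07 in U266 and by 0.43 ± 0.10 in MM.1S, and CEBPB and ATF4 rose in both, while RELA was not called in either, at 0.02 ± 0.06 and −0.10 ± 0.06.

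Among 15 other BCL2 family and BH3 genes, 14 could be tested. In U266 edgeR called 1 of them under IT848, lower, against 9.01% of all genes, and 3 had an unadjusted p below 0.05. The called gene was BMF, a BH3-only gene, which fell from 97.2 ± 5.96 to 78.0 ± 2.73 CPM. In MM.1S IT848 raised 4 and lowered 3 of the 14, against 38.3% of all genes called, with BMF falling from 329 ± 5.88 to 242 ± 25.0 CPM and the BH3-only gene BAD rising from 36.8 ± 3.09 to 48.1 ± 3.17 CPM. The other lowered genes were BNIP3 and BOK, both under 1 CPM in MM.1S. Between the lines, 1 of the 14 was higher and 9 were lower in MM.1S, against 82.6% of all genes called, with a median log2 difference of −0.91, among them the survival gene BCL2L2 (encoding BCL-W) at 26.0 ± 0.851 CPM in U266 and 0.478 ± 0.140 CPM in MM.1S.

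Downstream of the pores, 19 genes of the apoptosome, the caspases and their inhibitors gave 1 higher and 2 lower under IT848 in U266, where 9.01% of all genes were called, and 5 higher and 2 lower in MM.1S, close to the 38.3% over all genes. In MM.1S the initiator caspase CASP9 rose from 27.9 ± 1.36 to 36.2 ± 1.99 CPM and its platform APAF1 from 24.8 ± 1.72 to 31.0 ± 1.49 CPM, whereas CASP2 fell from 197 ± 9.10 to 143 ± 12.1 CPM. BIRC3, an NF-kB target encoding cIAP2, fell in U266 from 346 ± 4.62 to 309 ± 9.06 CPM. Of 12 genes of the mitochondrial membranes and of mitochondrial fission and fusion, 1 was called in U266, OMA1, lower. In MM.1S 4 of them rose and 1 fell, and both counts were near those shares. VDAC3, a channel of the outer membrane, went from 154 ± 11.0 to 279 ± 47.1 CPM in MM.1S. Values of all these lists are given without correction for the trend of fold change with transcript length. Of 16 genes for the turnover, modification or binding of family proteins, edgeR called 0 in U266, where 2 had an unadjusted p below 0.05 and DESeq2 called 1. In MM.1S 6 of the 16 rose and 2 fell, against 18.7% and 19.6% of all genes, where DYNLL1, encoding a dynein light chain that binds BIM, rose from 157 ± 12.5 to 213 ± 28.0 CPM.

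**Figure D4:**
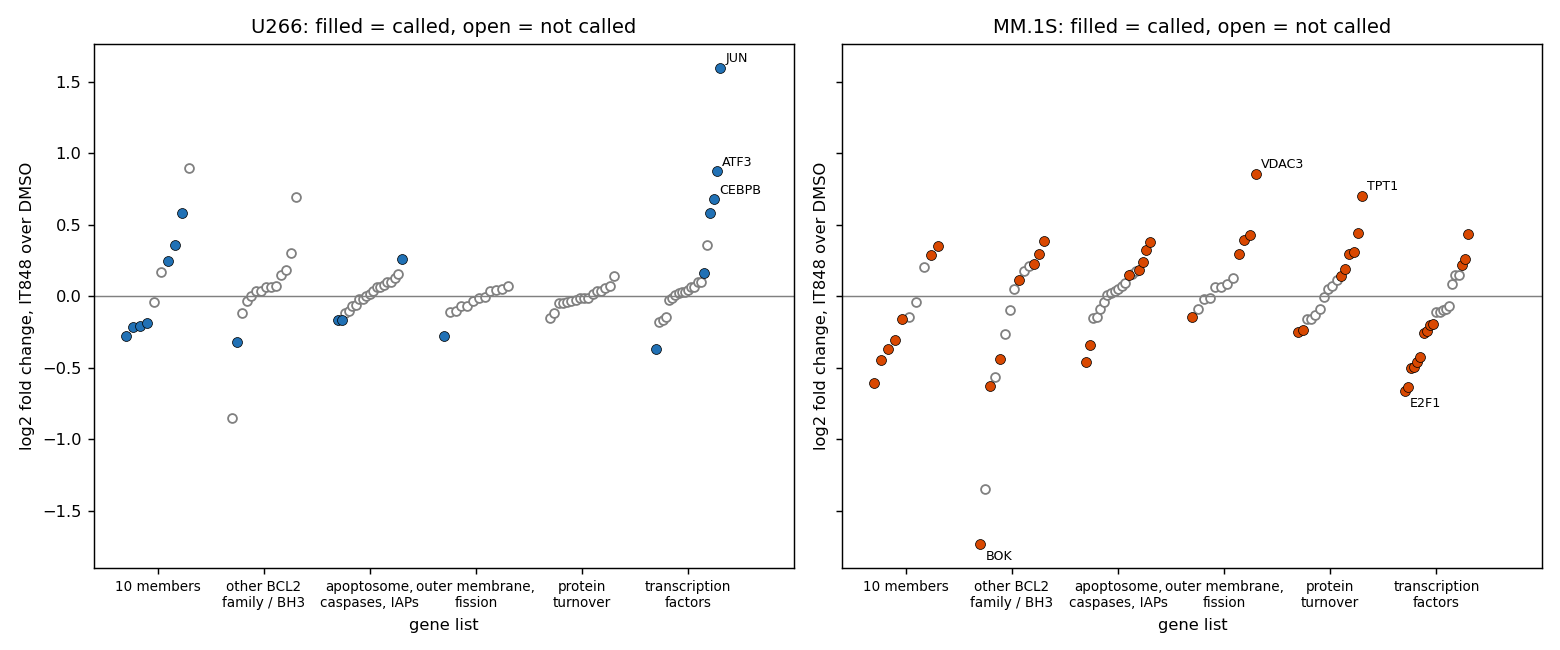
Log2 change under IT848 in U266 and MM.1S for the 10 genes and the 5 lists of related genes, with 1 point per gene tested, filled where called. JUN and ATF3 are the highest called points in U266, and more list genes are called in MM.1S than in U266, as over all genes (38.3% against 9.01%). BOK, the lowest point in MM.1S, averaged 0.124 CPM under DMSO.

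After centring each line on its own mean, the genes whose log2 CPM followed the members most closely over the 12 libraries were MYB for BCL2L11 (Pearson r = 0.994), DDX46 for MCL1 (0.993), BRCA1 for BCL2 (0.991), WDR1 for BCL2L1 (0.986) and AGPAT9 for BAX (0.983). SMIM7 followed BID (0.979), WNT10A followed BAK1 (0.958) and SNRPF followed PMAIP1 (0.951). The likeness was weaker for BBC3, with TRIM4 at 0.923, and for BCL2A1, with HCCS at 0.891. The points share line, treatment and library, so these values only describe which profiles were alike.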

How the data were processed

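RNA from 12 libraries was measured as deposited counts per transcript. Per the submitters' processing notes, the authors worked with featureCounts (Subread 1.5.2), STAR 2.5.2b, Trimmomatic 0.36, bcl2fastq and hg19. Strand setting, treatment of multi-mapped reads and annotation release: not given in the sources used here. Strand being unknown, reads of BBC3 and BID cannot be told apart from those of the overlapping microRNA genes, nor those of BCL2L1 from BCL2L1-AS1. The span of BCL2 also overlaps the pseudogene LOC124904379, and that of BCL2L1 the long noncoding RNA LOC124904883. Whether exons overlap was not checked. The deposited files also hold FPKM, from which transcript lengths were recovered, and TPM per the file headers; levels per length were computed from counts.

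Counts of a symbol's transcripts were summed over 51780 transcripts and 25680 symbols. Genes were filtered with filterByExpr (minimum count 10), scaled by TMM and tested with edgeR 4.0.16 (R 4.3.3), robust quasi-likelihood F-test, on all 4 groups in 1 fit, with Benjamini-Hochberg adjustment over all 16782 genes tested. The SE of a log2 change is its size divided by the square root of F. The procedure was tested on simulated data. Alternatives were DESeq2 1.42.0, other scalings, no filter, 1 transcript per gene, only the groups compared, a length correction, a replicate block, and leaving libraries out. Likeness used log2 CPM with a prior count of 2. Reads of the other line were read from genes of at least 20 CPM in one line and at most 0.1 CPM in the other. Promoter windows came from RefSeq (GRCh38.p14). Members and lists were chosen with earlier results of these data known; named list genes are the called genes of largest change, up to 4 for each list and comparison, from which the text takes examples.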

Additional observations from a re-analysis of the deposited data

Results flagged for a closer look

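The response to IT848 differed between the lines by the test of the difference itself for 3 of the 10 genes, against 17.4% of all genes tested. On the log2 scale, MM.1S minus U266, the difference was −0.41 for BCL2, −0.39 for BCL2L11 and −0.50 for PMAIP1. BCL2 and BCL2L11 were lower in each treated MM.1S library than in each control, and PMAIP1 was higher in each treated U266 library than in each control. Treated and control libraries were separate for 47.2% of all genes in MM.1S and 28.9% in U266. Without U266 IT848 replicate 1 and MM.1S DMSO replicate 2, PMAIP1 was not called by the test of the difference (adjusted p = 0.0503). With 3 libraries a group, no test for a single outlying value of a gene was run.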

How the results depend on the processing

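Over the 21 alternatives run (20 for the difference), MCL1, BCL2L11 and BAK1 stayed called in U266, BCL2, BCL2L1, MCL1, BCL2L11 and BID in MM.1S, and BCL2 and BCL2L11 in the difference between the lines. All 9 calls between the lines were kept too, that of BCL2A1 with the limit of the filter given above. Leaving out 1 library at a time gave 986 to 1827 genes and 4 to 7 of the 10 members called in U266, 5110 to 6681 genes and 6 to 7 members in MM.1S, 2208 to 3870 genes and 3 to 4 members in the difference, and 13480 to 14177 genes and 9 to 10 members between the lines. Without U266 IT848 replicate 1 and MM.1S DMSO replicate 2, 924 genes and 4 members were called in U266, and 1712 genes in the difference. In the difference, 5 members were called with 1 transcript per gene, with DESeq2, with the length correction and with the replicate block. The block gave 4388 genes in the difference and added BID in U266 (adjusted p = 0.0372). Libraries with the same number share only that number: their deviations correlated at 0.103, 0.136 and −0.034 in U266 and at 0.416, −0.107 and 0.399 in MM.1S. Reversals were seen for genes that were not called. BBC3 in MM.1S moved over −0.15 to 0.032 with 1 library left out and to 0.038 without those 2 libraries, and BCL2A1 in MM.1S over −0.23 to 0.48 and to −0.037 with the length correction. The difference for BAX was −0.14 with the length correction. The cause was not tested. Depth limits BCL2A1, which had 4 to 56 summed counts per library.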
